A study of Mus musculus with 9 samples.

Results

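Mss51, Mstn and 7 genes that carry or restrain the myostatin signal were followed across 9 mouse skeletal muscles, as 9 of the 22180 genes named on the arrays. Mss51 and Mstn were chosen by their log2 values on these same arrays, where they were extreme in masseter and in soleus, so their levels are given as a description and without a test. The type II receptors Acvr2a and Acvr2b, the secreted inhibitors Fst and Fstl3, and the signal transducers Smad2, Smad3 and Smad7 were listed for their role in the pathway. Each of the 9 genes had 1 probe set assigned to it alone.

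The muscles came from male C57BL/6J mice, an inbred laboratory strain, aged 12 weeks, and the labels name no treatment or altered gene for any of them. RNA of each muscle was hybridised to 1 whole-transcript GeneChip array, in a study whose title concerns Hoxa10 and positional memory in muscle stem cells. By the anatomical position of the labelled muscle, 4 arrays were of the hindlimb (rectus femoris, tibialis anterior, soleus and gastrocnemius), 3 of the shoulder and forelimb (trapezius, supraspinatus and triceps) and 2 of the head (masseter and digastric). With 1 array per muscle, a difference between muscles cannot be told apart from one between animals or arrays, and nothing read here says if RNA of several animals was pooled. In whole tissue, fewer cells of a type and less RNA per cell cannot be told apart either.

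Myostatin, the product of Mstn, is a secreted member of the transforming growth factor beta family that restrains muscle growth. It is made as a precursor, is released by proteolysis, and binds activin type II receptors, which recruit a type I receptor that phosphorylates Smad2 and Smad3. These enter the nucleus with Smad4, while Smad7, itself induced by the signal, acts as a feedback inhibitor, and follistatin (Fst) and follistatin-like 3 (Fstl3) bind the ligand outside the cell. Mss51 encodes a mitochondrial protein with a MYND zinc finger that is found mainly in skeletal muscle, and its transcript has been reported to fall in mouse muscle when myostatin signalling is blocked. Its namesake in the yeast Saccharomyces cerevisiae acts in the synthesis of a cytochrome oxidase subunit.

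The promoters of Mss51 and Mstn are shown because these genes of the group differed most between muscles, with that of Acvr2b as an example of another member. Between its highest and lowest array Acvr2b ranged over 0.85 on the log2 scale, against a median range of 0.81 for all genes. Each sequence is the 250 bases before a RefSeq transcription start on GRCm38.p6, 5′ to 3′ on the strand of the gene, and capitals mark E boxes (CANNTG, a palindrome, so that either strand gives the same count), the motif bound by MyoD and its relatives. The windows are chr14:20496902-20497151 on the minus strand for Mss51, chr1:53061390-53061639 on the plus strand for Mstn and chr9:119401928-119402177 on the plus strand for Acvr2b.
Mss51: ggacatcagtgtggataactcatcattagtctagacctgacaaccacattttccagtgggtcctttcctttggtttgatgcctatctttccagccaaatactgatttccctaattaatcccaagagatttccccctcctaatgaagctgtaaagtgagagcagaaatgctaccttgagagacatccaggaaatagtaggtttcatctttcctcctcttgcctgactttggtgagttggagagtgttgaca
Mstn: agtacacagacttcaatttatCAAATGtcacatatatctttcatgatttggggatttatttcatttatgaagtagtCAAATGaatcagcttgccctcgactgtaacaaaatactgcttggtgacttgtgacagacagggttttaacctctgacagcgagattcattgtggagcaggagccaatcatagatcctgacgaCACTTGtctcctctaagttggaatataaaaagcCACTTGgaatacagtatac
Acvr2b: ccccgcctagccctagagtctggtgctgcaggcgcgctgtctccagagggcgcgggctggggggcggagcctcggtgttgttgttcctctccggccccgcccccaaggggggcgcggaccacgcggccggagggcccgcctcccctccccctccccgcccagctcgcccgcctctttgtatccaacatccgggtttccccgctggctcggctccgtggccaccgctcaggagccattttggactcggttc

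The Mstn window held 4 E boxes, which begin 229, 174, 52 and 19 bases before the start, and 3.84% of 32851 promoter windows held as many or more. It also had the letters TATAAA beginning 29 bases before the start, found on the strand of the gene in 7.59% of windows, and 2 copies of CAGAC, the core of Smad binding elements, over both strands, found at least as often in 11.5% of windows. The Mss51 window had no E box, as had 33.8% of windows, and neither TATAAA nor CAGAC. It had 0 CG dinucleotides, as had 7.87% of windows, and the Mstn window had 3. The windows of the other members in the RefSeq table were rich in them, with 49 in Acvr2a, 24 in Acvr2b and 22 each in Fstl3 and Smad3, where the median window had 6. Fstl3, the member with the narrowest range over the arrays (0.39), had 3 E boxes and, like Mstn, 2 copies of CAGAC. At least 3 E boxes were found in 12.2% of windows. Acvr2a and Acvr2b had 0 E boxes and 1 copy of CAGAC each, and Smad3 had 0 of both. Of the 9 members 6 had a promoter in that table, and the others were Fst, Smad2 and Smad7. A match of letters is a description of the window and shows no binding.

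The arrays had no detection calls. As a rough yardstick of signal without transcript, the 95th percentile of 1088 olfactory receptor (Olfr) genes was taken on each array, which lay between 3.30 and 3.63 on the log2 scale. Probe sets differ in affinity, so this is no sharp limit. Of the 81 values of the 9 members, 80 lay above it, the exception being Mstn in soleus. Myofibre genes marked the tissue as skeletal muscle on each array, with the 11 fast fibre genes between 7.95 and 12.95. The values of triceps, rectus femoris and gastrocnemius were spread less widely over probe sets (SD 1.919 to 1.957) than those of the other 6 arrays (SD 2.033 to 2.077), and where a member followed this split its values are given for both sets of arrays.

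Mss51 had a log2 level of 11.12 in masseter and 8.16 in digastric, the head muscles. On the other arrays it was at 5.81 in supraspinatus, 5.75 in triceps, 4.98 in gastrocnemius, 4.81 in tibialis anterior, 4.71 in rectus femoris, 4.51 in trapezius and 4.05 in soleus. The head arrays thus stood above all 7 others, and masseter stood 2.96 above digastric. The masseter value exceeded the median of the other 8 arrays by 6.22, a 74.7-fold difference in the deposited values, and the digastric value exceeded that of its other 8 arrays by 3.26, or 9.59-fold. None of the 22180 genes differed by more than Mss51 in masseter in that direction, and 1 gene did in digastric. Past 2-fold higher were 1.12% of all genes in masseter and 1.14% in digastric.

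Outside the head, Mss51 averaged 4.94 ± 0.64 (SD, n = 7 muscles). By region it averaged 4.64 ± 0.41 in hindlimb (SD, n = 4), 5.36 ± 0.73 in shoulder and forelimb (SD, n = 3) and 9.64 ± 2.09 in head muscles (SD, n = 2). In the order of levels the steps from masseter to digastric (2.96) and from digastric to supraspinatus (2.35) were wider than the SD of the 4 hindlimb arrays, as were the steps from triceps to gastrocnemius (0.77) and from trapezius to soleus (0.46). The other neighbours lay closer together than that SD. It is a spread between different muscles, soleus among them, and serves only as a scale. The soleus value, 1.32 below the median of the others, was still above the soleus yardstick of 3.30.

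**Figure D1:**
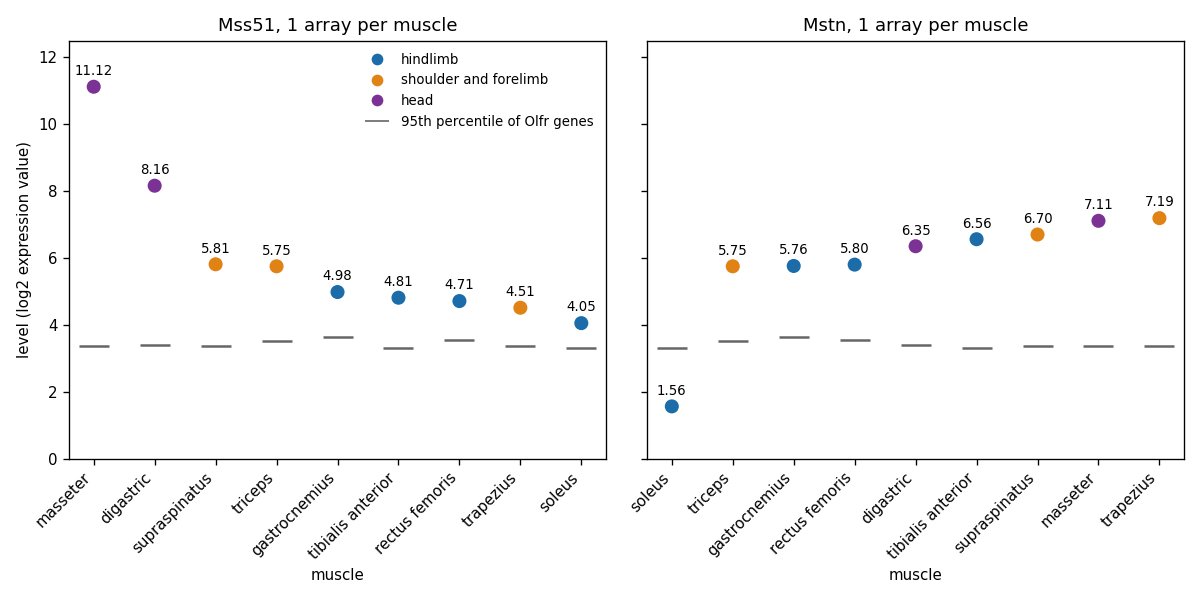
Log2 levels of Mss51 (left) and Mstn (right) on 1 array per muscle, ordered from masseter downwards for Mss51 and from soleus upwards for Mstn, with points coloured by region and grey dashes at the 95th percentile of Olfr genes on that array. Mss51 reaches 11.12 in masseter and 8.16 in digastric and is at most 5.81 elsewhere, and Mstn is at 1.56 in soleus, below its dash, and between 5.75 and 7.19 elsewhere.

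Some salivary gland genes were above the yardstick on the head arrays, where the glands lie beside the muscles. The mean of 7 salivary markers was 3.30 in masseter and 2.80 in digastric, against 2.07 to 2.35 on the other arrays, and 3 of the 7 were above the yardstick on each head array, against at most 1 elsewhere. One of them, Dcpp1, was also above it on 5 of the 7 arrays outside the head. Another, Amy1, was above it in digastric (4.18) and trapezius (3.84) but not in masseter (2.94). Klk1, a kallikrein of the salivary ducts, reached 7.28 in masseter but 0.91 in digastric, and the salivary secretory gene Bpifa2 was at 3.74 in masseter and 5.16 in digastric, while Smr2 and Prol1 were at or below 2.43 in both. Their part in the Mss51 level was not tested.

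Other genes did not share the size of the Mss51 pattern. Among 536 named genes whose highest and lowest arrays differed by at least 2 on the log2 scale, the 5 with the highest Pearson r to Mss51 over the 9 arrays were Mapkapk3 (0.922), Trp53inp1 (0.901), Tle4 (0.886), Eqtn (0.872) and Neto2 (0.871). Mapkapk3, a kinase downstream of p38 MAP kinase, reached 8.62 in masseter, 7.45 in digastric and 6.37 to 7.25 elsewhere, with a Spearman rho of 0.62 and an r of 0.65 without the head arrays. For Tle4, a transcriptional corepressor, r without the head arrays was 0.29 and for Trp53inp1, a gene induced by p53, it was 0.16, so that their likeness rested on those 2 arrays. Eqtn was above the yardstick in masseter alone. These r values describe 9 muscles that differ in fibre type, position and array, and carry no test.

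The 5 most opposite genes were Car3 (-0.896), Kcne1l (-0.896), Lbx1 (-0.87), Nr4a2 (-0.864) and Cilp (-0.842). Car3, a carbonic anhydrase of slow fibres and adipocytes, had levels of 7.03 in masseter, 7.78 in digastric and 8.62 to 11.34 elsewhere. Kcne1l, a potassium channel subunit gene, had levels of 3.39 in masseter, 3.64 in digastric and 4.64 to 5.88 elsewhere. For these genes r without the head arrays was -0.67 and -0.64. Lbx1, which marks the migrating precursors of limb muscle, lost the relation without them (r = 0.31).

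Neither relatives by domain nor the genes of its namesake's pathway had a pattern of that size. Among 16 measured genes of the MYND family, Mss51 alone was past 2-fold in masseter, and of the other 15 in digastric 0 were past 2-fold higher and 1, Smyd2, was past 2-fold lower. Smyd2, a muscle methyltransferase, was at 8.56 in masseter and 6.45 in digastric, and it was also past 2-fold lower in supraspinatus (7.28) and soleus (7.23) and past 2-fold higher in tibialis anterior (9.33). Of 18 measured cytochrome oxidase assembly genes other than Mss51, 1 had a positive and 17 a negative difference for hindlimb minus head muscles, with a median of -0.46 against 0.04 over all genes. In either direction 0 of the 18 passed the test described below, where 0.00902% of all genes passed. Among the 6 arrays of wider range the median was -0.29, with 17 of 18 negative. Endothelial markers had a median of -0.71 for hindlimb minus head muscles (0 of 6 positive), and of -0.26 on the 6 arrays of wider range (1 of 6 positive). Their mean levels were 7.44 in masseter and 7.68 in digastric. In the hindlimb they were 7.47 in soleus, 6.44 in gastrocnemius, 7.16 in tibialis anterior and 6.27 in rectus femoris. Against the median of the other arrays, endothelial markers and the 19 assembly genes with Mss51 parted in soleus (median 0.65 and -0.08) and trapezius (-0.36 and 0.17). The part of endothelial markers in the difference of the assembly genes was not tested. Lrpprc, which stabilises mitochondrial transcripts, was at 6.77 in soleus, 6.36 in gastrocnemius, 7.25 in tibialis anterior and 5.98 in rectus femoris, against 7.40 in masseter and 7.68 in digastric. Cox18, which inserts a subunit into the membrane, was between 4.97 and 5.69 in hindlimb muscles, against 6.15 in masseter and 6.07 in digastric.

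Mstn had a log2 level of 1.56 in soleus, where 56.9% of Olfr genes were lower. On the other arrays it was at 5.75 in triceps, 5.76 in gastrocnemius, 5.80 in rectus femoris, 6.35 in digastric, 6.56 in tibialis anterior, 6.70 in supraspinatus, 7.11 in masseter and 7.19 in trapezius. Soleus was 4.19 below the next lowest array, whereas the 8 others averaged 6.40 ± 0.59 (SD, n = 8 muscles). The soleus value was 4.89 below the median of the other 8, or 29.7-fold lower, and as deposited this was the largest negative difference of any gene in soleus. Past 2-fold lower in soleus were 0.69% of all genes. Since the soleus value lay among those of Olfr genes it gives a bound. Set against the soleus yardstick in place of it, Mstn was at least 8.87-fold lower in soleus than the median of the other muscles, and 5 genes, looked up after their values were seen, were lower in soleus by more than this bound (Pfkfb3, Myh4, Pvalb, Mybpc2 and Smox).

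Mstn averaged 4.92 ± 2.27 in hindlimb (SD, n = 4), 6.55 ± 0.73 in shoulder and forelimb (SD, n = 3) and 6.73 ± 0.54 in head muscles (SD, n = 2), and soleus was the hindlimb array that stood apart. Besides soleus, masseter (1.03 above the median of the other arrays) and trapezius (1.11 above) were past 2-fold, as were 1.12% and 0.676% of all genes in the same order and direction. The 3 arrays of narrower range lay between 5.75 and 5.80, below the 5 of wider range other than soleus, which ran from 6.35 to 7.19. Whether this step among the 8 arrays belongs to the muscles or to the arrays cannot be told apart.

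Soleus was the slow muscle of the set. Myh7, the slow myosin heavy chain gene, was at 11.62 in soleus, against 8.64 in trapezius, 8.53 in gastrocnemius, 7.66 in triceps and at most 5.49 elsewhere. Myh4, the fast IIb gene, was at 8.85 in soleus, against 11.94 to 12.95 elsewhere. Over the 9 arrays Mstn had a Pearson r of 0.93 (Spearman rho 0.73) with the mean of 11 fast fibre genes and of -0.83 (rho -0.40) with that of 11 slow fibre genes. Without soleus these r values were 0.28 and 0.04, and without both soleus and trapezius the r with slow fibre genes was -0.63 (n = 7). Trapezius, with the second highest slow fibre mean (7.40, against 10.37 in soleus), had the highest Mstn level.

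For Mss51, r was 0.23 with the fast fibre mean and -0.49 with the slow fibre mean (rho 0.10 and -0.57), and without soleus -0.31 and -0.48. Masseter and digastric had fast fibre means of 12.15 and 11.75 and slow fibre means of 5.07 and 5.48. Rectus femoris, an array of narrower range, had almost the same pair of means as masseter (12.13 and 5.07) with Mss51 at 4.71. Single genes of these lists still differed between masseter and rectus femoris, in both directions. In that order, Myh1 of the fast list was at 12.79 and 11.27. Of the slow list, Myoz2 was at 7.43 and 4.71, and Myh7 at 4.1 and 5.49. Like means thus do not show like fibre profiles, and the part of fibre type in the Mss51 level was not tested. Mss51 and Mstn had an r of 0.42 with each other (rho 0.30), and of 0.53 without the head arrays. Masseter was high in both genes, trapezius was high in Mstn and low in Mss51, and soleus was the lowest in both.

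**Figure D2:**
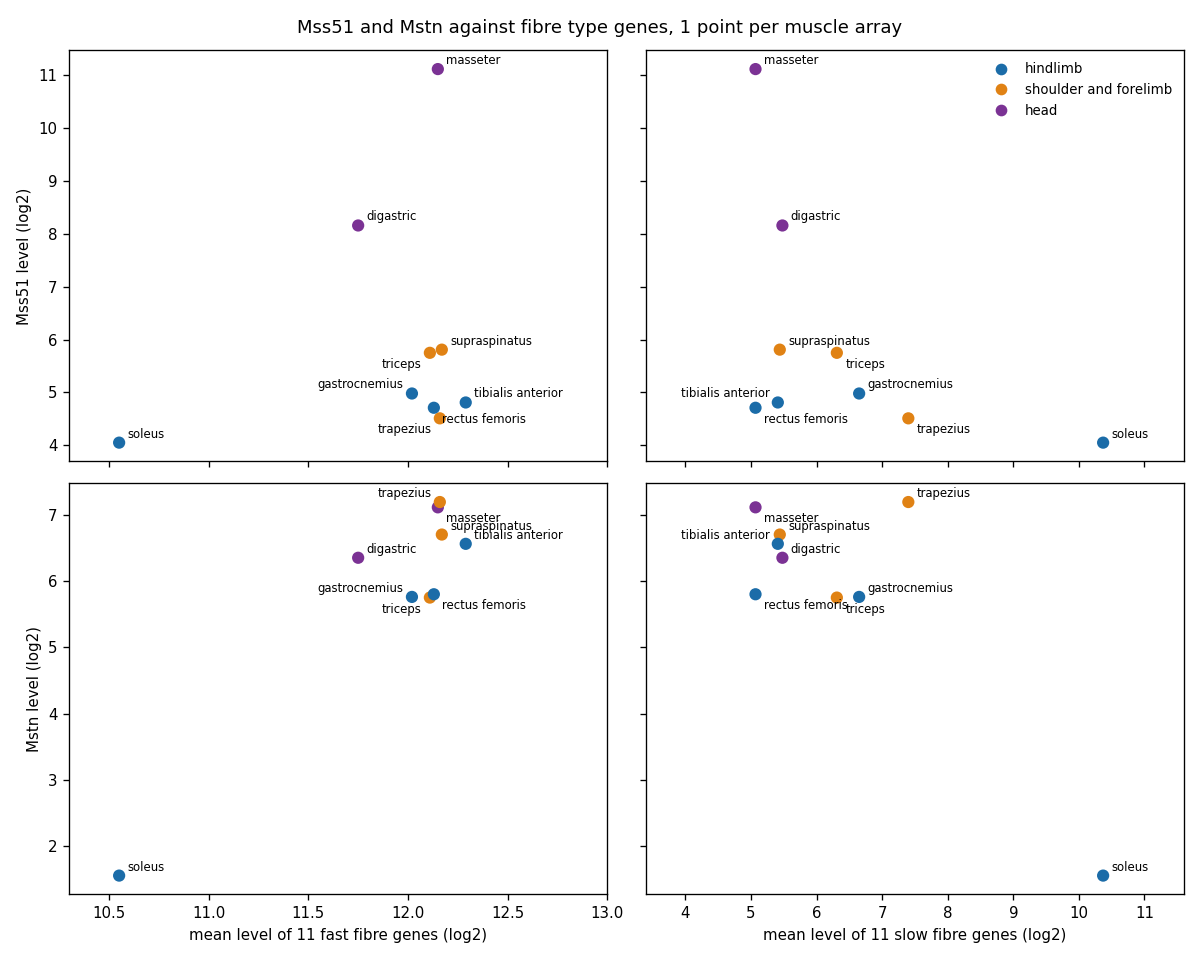
Log2 levels of Mss51 (upper row) and Mstn (lower row) against the mean log2 level of 11 fast fibre genes (left) and 11 slow fibre genes (right), 1 point per muscle array, coloured by region. Soleus stands apart at a fast fibre mean of 10.55 and a slow fibre mean of 10.37 with Mstn at 1.56, and the head muscles stand above the others in Mss51. Fast and slow fibre means are 12.15 and 5.07 in masseter and 11.75 and 5.48 in digastric. The fast fibre mean of digastric is below that of every other muscle but soleus.

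The genes most like Mstn by the same rule were Shisa2 (r = 0.976), Mdga1 (0.945), Mybpc2 (0.919), Gpd2 (0.905) and Pvalb (0.904). Shisa2, which encodes a membrane protein that restrains Wnt and Fgf receptors, was at 6.29 in soleus, against 7.69 to 8.32 elsewhere, and kept an r of 0.80 without soleus. Mdga1, a cell adhesion gene, was at 3.99 in soleus, against 5.83 to 7.04, with an r of 0.63 without soleus. Mybpc2, the fast myosin binding protein C gene, and Pvalb, the calcium buffer of fast fibres, had r values of 0.05 and 0.02 without soleus, and Gpd2, a mitochondrial glycerol phosphate dehydrogenase gene, of 0.10. Their likeness therefore rested on the soleus array.

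The most opposite genes were Myh7b (-0.952), Nlrc3 (-0.949), Rp1 (-0.935), Prox1 (-0.934) and Uchl1 (-0.932). Myh7b, a slow-type myosin gene, was at 5.79 in soleus, against 3.46 to 3.96 elsewhere, and Prox1, a transcription factor of slow fibres, at 6.57, against 3.47 to 4.69. Without soleus the 5 r values lay between -0.54 and -0.29.

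The receptors, inhibitors and Smads varied far less than Mss51 and Mstn, which had been chosen for their extremes. For the 7 members other than Mss51 and Mstn, 0 of 63 values on an array were 2-fold or more from the median of the other 8 arrays, with differences from -0.66 to 0.77. Over all genes the share past 2-fold in either direction was 2.06% in soleus, 3.56% in gastrocnemius, 0.537% in tibialis anterior and 2.71% in rectus femoris. It was 1.81% in triceps, 0.203% in supraspinatus, 0.848% in trapezius, 1.67% in masseter and 1.66% in digastric, so that few genes passed on any array. The range between the highest and the lowest array was 0.39 for Fstl3, 0.61 for Smad2, 0.73 for Acvr2a, 0.85 for Acvr2b, 0.99 for Smad7, 1.04 for Fst and 1.22 for Smad3. The median range of all genes was 0.81, with the ranges of the 7 members on both sides of it, and the ranges of Mss51 and Mstn were 7.07 and 5.63.

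Acvr2a, a type II receptor for activins and myostatin, was at 5.80 in soleus, 6.29 in gastrocnemius, 6.30 in tibialis anterior and 6.35 in rectus femoris. It was at 5.94 in triceps, 5.89 in supraspinatus and 5.68 in trapezius, and at 6.41 in masseter and 6.12 in digastric. The shoulder and forelimb arrays lay below both head arrays, and within the hindlimb soleus lay 0.49 below the others. Acvr2b, the type II receptor with the higher affinity for myostatin, was at 5.45 in soleus, 4.79 in gastrocnemius, 5.27 in tibialis anterior and 4.94 in rectus femoris. It was at 5.06 in triceps, 5.55 in supraspinatus and 5.52 in trapezius, and at 5.44 in masseter and 5.64 in digastric. Its lowest values were those of the 3 arrays of narrower range (4.79 to 5.06), below all 6 of wider range (5.27 to 5.64).

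Fst was at 4.69 in soleus, 5.38 in gastrocnemius, 4.34 in tibialis anterior and 5.06 in rectus femoris, at 5.13 in triceps, 4.79 in supraspinatus and 4.77 in trapezius, and at about the same level, 4.8, in both head muscles. The 3 arrays of narrower range (5.06 to 5.38) lay above the 6 of wider range (4.34 to 4.8), the reverse of Acvr2b. Of the 9 members these 2 were split by value range, and 20.9% of all genes were split in that way. Fstl3, which also binds activins, was at 5.39 in soleus, 5.43 in gastrocnemius, 5.43 in tibialis anterior and 5.63 in rectus femoris, at 5.73 in triceps, 5.51 in supraspinatus and 5.39 in trapezius, and at 5.34 in masseter and 5.42 in digastric. Its range was narrower than that of 94.4% of all genes.

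Smad2 was at 5.22 in soleus, 5.18 in gastrocnemius, 5.08 in tibialis anterior and 5.08 in rectus femoris, at 4.67 in triceps, 5.12 in supraspinatus and 5.08 in trapezius, and at 5.22 in masseter and 5.28 in digastric. Triceps was the only array under 5. Smad3 was at 6.75 in soleus, 6.88 in gastrocnemius, 6.89 in tibialis anterior and 6.73 in rectus femoris, at 7.04 in triceps, 6.80 in supraspinatus and 6.85 in trapezius, and at 7.60 in masseter and 6.38 in digastric. The head muscles thus held both its highest and its lowest value. Smad7 was at 5.15 in soleus, 4.39 in gastrocnemius, 5.02 in tibialis anterior and 4.17 in rectus femoris, at 4.78 in triceps, 5.07 in supraspinatus and 4.39 in trapezius, and at 4.62 in masseter and 4.22 in digastric. Its values overlapped between all regions, and soleus, with the lowest Mstn level, had the highest Smad7 level.

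**Figure D3:**
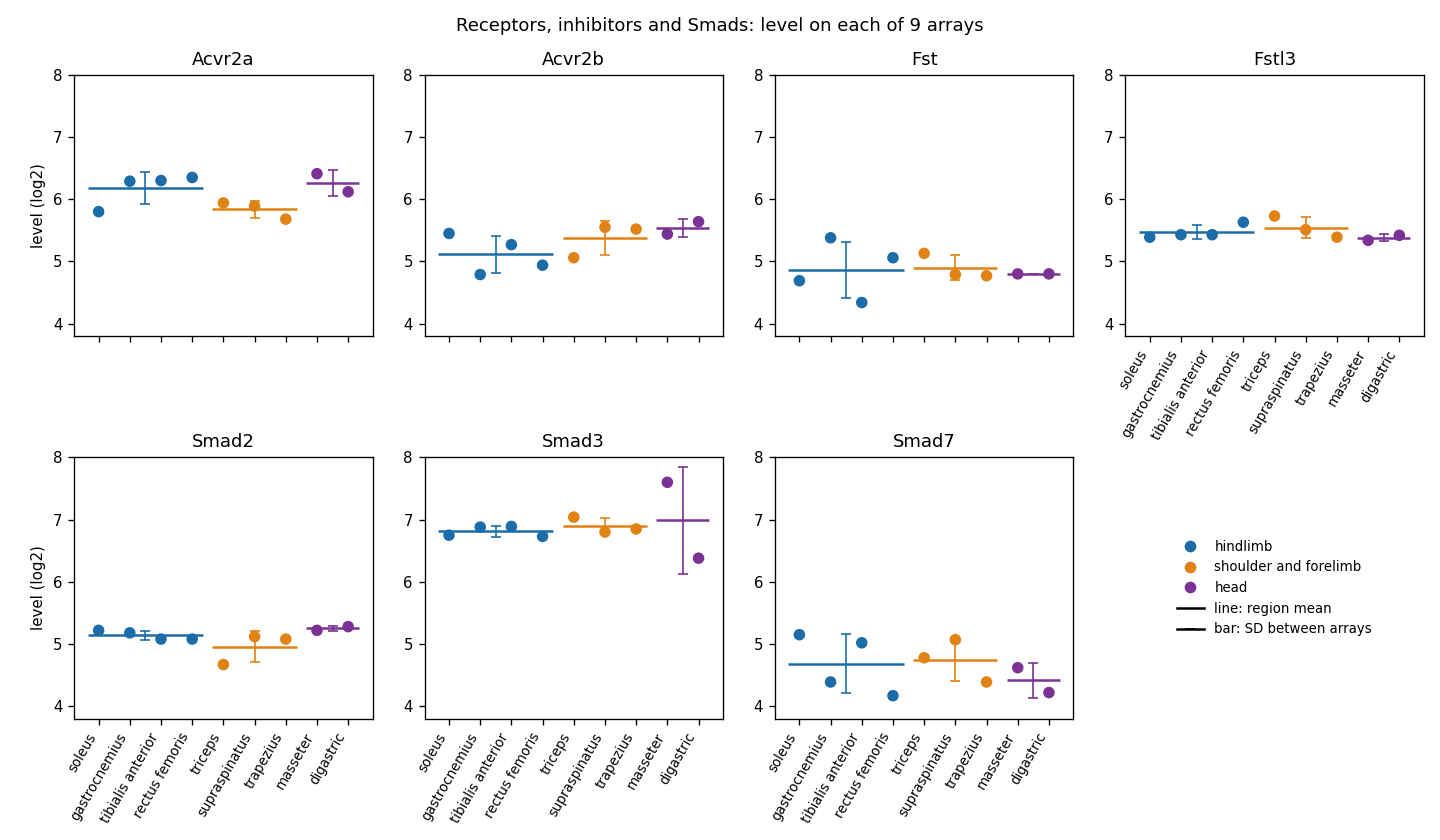
Log2 levels of Acvr2a, Acvr2b, Fst, Fstl3, Smad2, Smad3 and Smad7 on each of 9 arrays, grouped into hindlimb, shoulder and forelimb, and head muscles, with horizontal lines at the region means and bars for the SD between arrays. The regions overlap for most genes, and masseter (7.60) and digastric (6.38) are the highest and lowest arrays for Smad3.

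Whether position in the body set these 7 genes apart was tested with limma across all genes. In hindlimb minus head muscles 0 of 7 members passed an adjusted p of 0.05, where 0.00902% of 22180 genes passed. The count was also 0 of 7 in hindlimb minus shoulder and forelimb (0.00451% of genes) and in shoulder and forelimb minus head muscles (0% of genes). At an unadjusted p under 0.05 the counts were 0 of 7 in each comparison, against 11.9%, 3.65% and 6.92% of all genes in the same order. The smallest p of the 21 differences was 0.0668 in limma, unadjusted, for Acvr2a in shoulder and forelimb minus head muscles.

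Acvr2a averaged 5.84 ± 0.14 in shoulder and forelimb muscles (SD, n = 3) and 6.26 ± 0.21 in head muscles (SD, n = 2), a limma difference of -0.42 (SE 0.21, 95% interval -0.88 to 0.04, adjusted p = 0.72). Its difference in hindlimb minus shoulder and forelimb muscles was 0.35 (limma SE 0.17, 95% interval -0.04 to 0.73, adjusted p = 1). For Acvr2b, hindlimb muscles averaged 5.11 ± 0.30 (SD, n = 4) and head muscles 5.54 ± 0.14 (SD, n = 2), a difference of -0.43 (limma SE 0.23, 95% interval -0.93 to 0.07, adjusted p = 0.464). Each of the 3 shoulder and forelimb arrays was below both head arrays for 2 of the 7, Acvr2a and Smad2 (difference -0.29), where 14.7% of all genes were lower in that way and 29.9% did not overlap in either direction. In hindlimb minus head and hindlimb minus shoulder and forelimb muscles the groups overlapped for all 7 (0 of 7 apart), whereas 21.2% and 4.62% of all genes, in that order, had groups that did not overlap. Of the 21 intervals, 20 lay within a 2-fold difference in either direction, and that of Smad7 in shoulder and forelimb minus head muscles reached 1.03. Smaller differences between regions were not resolved with this number of arrays.

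**Figure D4:**
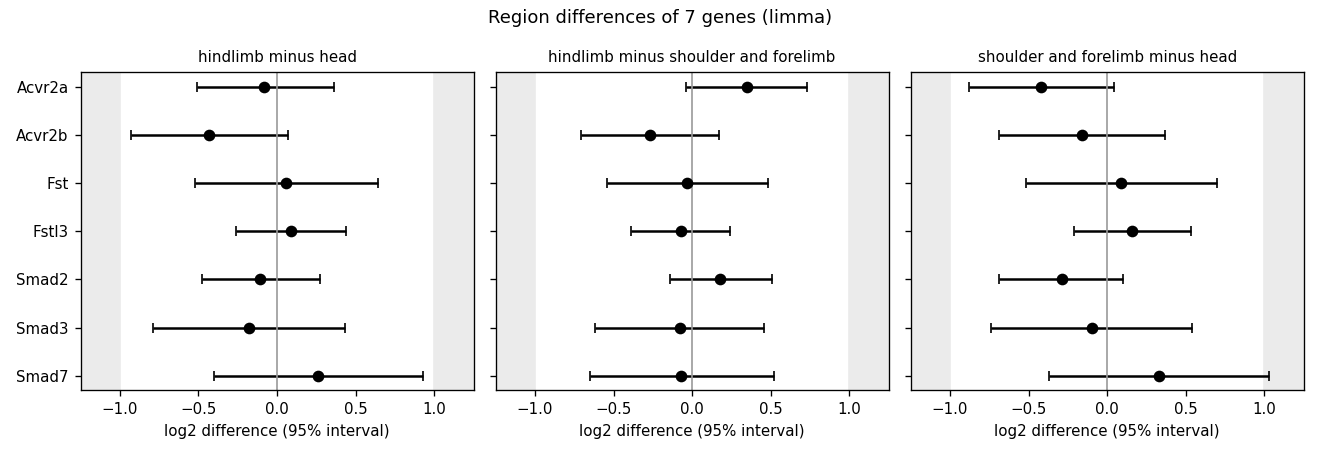
Log2 differences between regions with limma 95% intervals for 7 genes, in hindlimb minus head, hindlimb minus shoulder and forelimb, and shoulder and forelimb minus head muscles, with grey bands beyond a 2-fold difference. Every interval includes 0, and the Smad7 interval in the right panel reaches 1.03.

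The wider pathway was described over 6 lists that held 63 measured genes besides Mstn, 7 of them members. In limma 0 of the 63 passed in any of the 3 region comparisons, in either direction, where at most 0.00902% of all genes passed. With so few genes passing, this count does not set the pathway apart. For hindlimb minus head muscles the median difference was 0.21 for 7 ligands, 0.15 for 10 processing and latency genes, 0.00 for 13 receptors, 0.06 for 10 extracellular inhibitors, -0.07 for 16 Smads and their regulators and 0.22 for 11 Smad target genes, against 0.04 over all genes. On the 6 arrays of wider range the medians of the lists were 0.30, 0.22, 0.04, 0.04, 0.09 and 0.55 in the same order. The sign thus turned for Smads and their regulators. On those arrays the hindlimb is tibialis anterior and soleus alone, so the muscles compared changed along with the range. Against the median of the other arrays, 0 to 3 of the 56 genes that are no members were past 2-fold on an array. Over all genes that share ran from 0.203% in supraspinatus to 3.56% in gastrocnemius.

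In soleus 3 of these 56 genes were past 2-fold, as were 2.06% of all genes. Acvr1b, the type I receptor most used by myostatin and activins, was at 5.04 in soleus, 6.71 in gastrocnemius, 6.91 in tibialis anterior and 6.68 in rectus femoris, at 6.48 in triceps, 6.40 in supraspinatus and 6.39 in trapezius, and at 6.36 in masseter and 5.51 in digastric. It was thus lowest where Mstn was lowest. Bmpr1b, a type I receptor of bone morphogenetic proteins, was at 3.96 in soleus and at or below 3.27 elsewhere, under the yardstick on the other arrays. Ccn2, a matrix protein gene induced by transforming growth factor beta, was at 7.55 in soleus, against 4.86 in both masseter and trapezius and 5.58 to 6.49 elsewhere. Tendon markers moved with Ccn2, with a mean of 7.27 for 6 markers in soleus, against 4.82 in masseter, 4.62 in trapezius and 6.09 to 6.60 elsewhere, and their part in the Ccn2 level was not tested.

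The related ligand Gdf11, which uses the same receptors, was between 4.34 and 4.90 on all arrays, with 4.34 in soleus. Inhba, which encodes the subunit of activin A, was at 3.65 in soleus, against 4.07 to 4.99 elsewhere. Tgfbr1, a type I receptor that myostatin can also use, was at 5.35 in masseter, 5.09 in tibialis anterior and between 4.02 and 4.59 elsewhere. Skil, a Smad corepressor that the signal itself induces, was at 5.55 in tibialis anterior and 5.41 in soleus, at 3.60 to 3.95 on the 3 arrays of narrower range and at 4.44 to 4.55 elsewhere. Its lowest value, 3.60 in gastrocnemius, was under the yardstick of 3.63 there. Among the Smad target genes, Id1 was at 6.33 and Id3 at 6.05 in soleus, against at most 5.80 and 5.77 elsewhere, and the median of 11 target genes in soleus was 0.64 above the other arrays, against -0.02 over all genes. In soleus the median difference was also 0.65 for 6 endothelial markers and 1.03 for 6 tendon markers, whose part in the target genes' levels was not tested. Id1 and Id3 are known chiefly as targets of bone morphogenetic proteins.

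**Figure D5:**
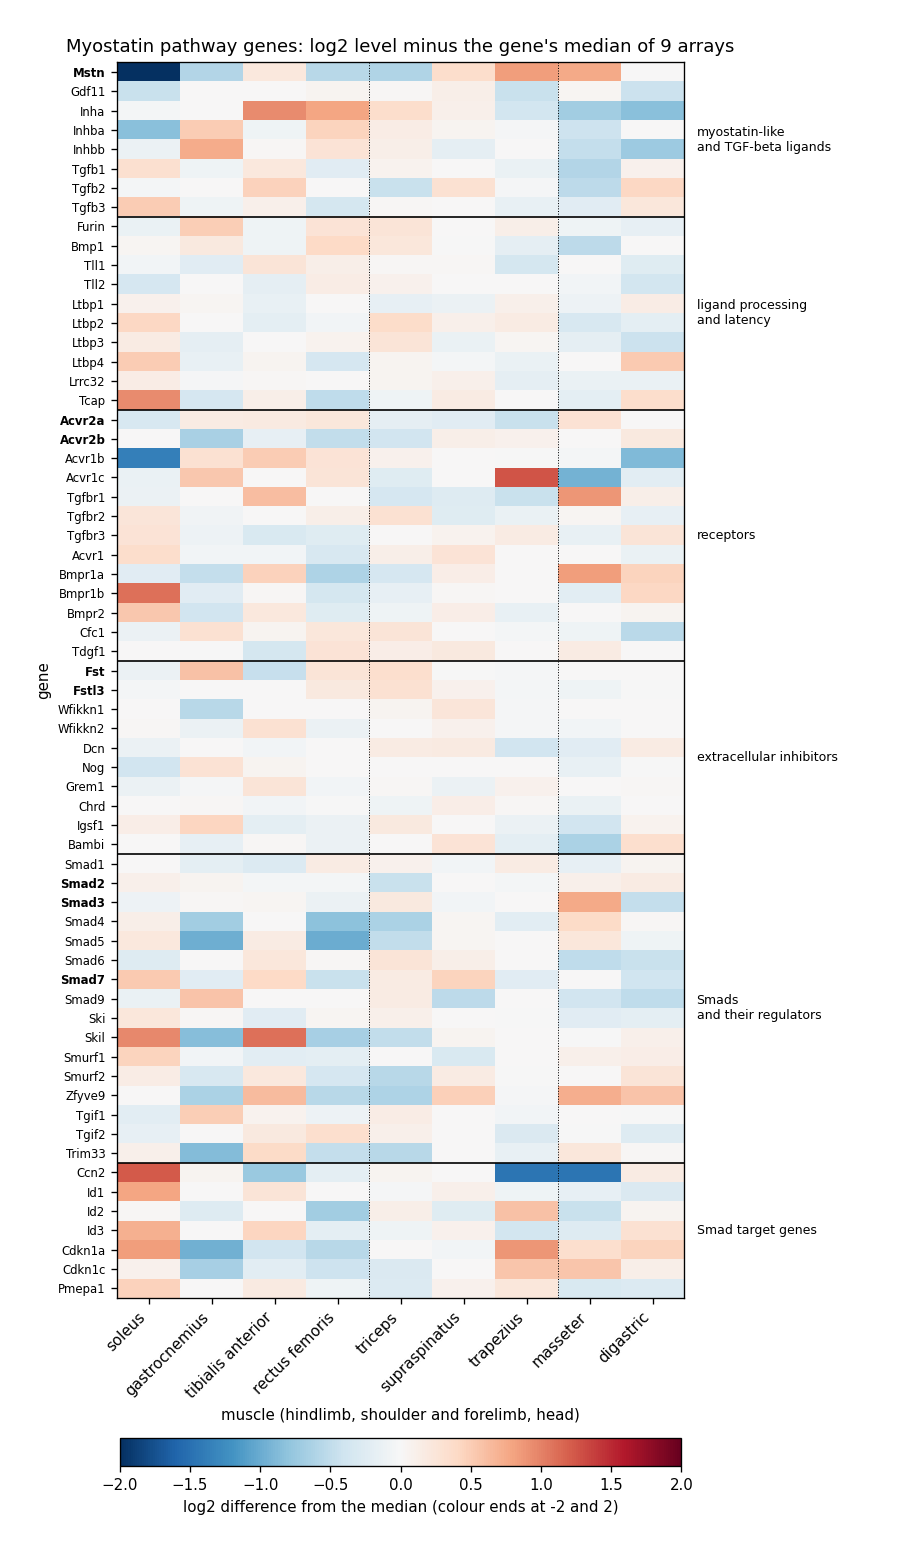
Heatmap of 64 genes of the myostatin pathway (rows, in 6 lists, members in bold) over 9 muscle arrays (columns, hindlimb, shoulder and forelimb, head), coloured by log2 level minus the gene's median of the 9 arrays, with colours ending at -2 and 2. Mstn in soleus is the deepest value, followed in that column by Acvr1b, and most other genes stay pale on all arrays.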

How the data were processed

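The authors deposited log2 expression values per probe set from 1 array per muscle, and the submitters' processing notes name GCRMA, a background correction and normalization of probe intensities, with no version. That the scale is log2 was taken from the values themselves (0.12 to 13.49, array medians 3.34 to 3.44). Of 41345 probe sets, 23521 were assigned to 1 gene by the array table. Symbols were updated through Entrez identifiers to RefSeq (GRCm38.p6), which matched 23328 of them, and the probe set with the highest mean was kept per gene, leaving 22180 genes. All 9 arrays entered 1 limma 3.58.1 fit (R 4.3.3) with a mean per region, 3 two-sided contrasts and Benjamini-Hochberg adjustment over all genes (6 residual degrees of freedom, 10.4 after moderation). The p-values rest on the spread between different muscles of a region. The procedure was tested on simulated data.

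Each array was also set against the median of the other 8, with 2-fold as the mark. Named genes were the members, genes of the lists for the pathway and for cell types, and the 5 most and least like Mss51 or Mstn by Pearson r. Members and lists were chosen with earlier results of these data known. Alternatives were median centring, quantile normalization, the mean of a gene's probe sets, a filter on dim genes, trend and robust settings, the value range as a term, the 6 arrays of wider range, and each array left out.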

Additional observations from a re-analysis of the deposited data

Results flagged for a closer look

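Among the 4 hindlimb arrays, the gap between the highest or lowest array and its nearest neighbour, as a share of the whole range, was looked at for 66 genes (the 7 tested members, 56 other pathway genes and 3 myosin genes), and it was above Dixon's 95% critical value for 9. Chance flags about 1 in 20 such groups where all values come from 1 population. These 4 arrays are of different muscles, soleus among them, so that rate need not hold here. The same share over all genes was not taken, so the count is no result about the pathway. Soleus was the low array for Acvr2a (share 0.88, level 5.80), Acvr1b (0.88, level 5.04), Gdf11 (0.89, level 4.34) and Myh4 (1.0, level 8.85).

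Tibialis anterior was the high array for Tgfb2 (0.90, level 5.43), Tgfbr1 (0.84, level 5.09) and Myh1 (0.83, level 12.36). Rectus femoris was high for Fstl3 (0.83, level 5.63, only 0.20 above its neighbour). Gastrocnemius was low for Wfikkn1 (0.99), an inhibitor of myostatin, at 3.53, which is under the yardstick of 3.63 there.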

How the results depend on the processing

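Mss51 in masseter stood 6.14 to 6.30, and Mstn in soleus -4.99 to -4.79, from the median of the other arrays when each of the other arrays was left out in turn, and median centring, quantile normalization and the 6 arrays of wider range moved neither by more than the spread between the other arrays. Under 16 alternative settings 0 of 336 values of the 7 tested members passed in limma (lowest adjusted p 0.236), and 307 kept the sign of the main value. The signs of differences near 0 turned in places. For hindlimb minus head muscles, Fst was -0.02 with median centring, -0.22 with the value range as a term and -0.29 on the 6 arrays of wider range, Fstl3 was 0.00 with the value range as a term, and quantile normalization gave 0.12 for Acvr2a, 0.01 for Smad2 and 0.04 for Smad3. For hindlimb minus shoulder and forelimb muscles, quantile normalization gave 0.02 for Fst and 0.01 for Smad3, and Smad7 was 0.01 with the range term and 0.35 on the 6 arrays. For shoulder and forelimb minus head muscles, Smad3 was 0.03 with quantile normalization, Acvr2b was 0.00 and Fst -0.09 with the range term, and Fst was -0.02 on the 6 arrays. With 1 array left out, hindlimb minus head differences ran from -0.22 to 0.07 for Acvr2a, -0.79 to 0.43 for Smad3 (0.43 without masseter) and -0.11 to 0.24 for Fst. Hindlimb minus shoulder and forelimb ran from -0.25 to 0.10 for Smad7, -0.20 to 0.15 for Fst and -0.15 to 0.02 for Fstl3, and shoulder and forelimb minus head from -0.70 to 0.51 for Smad3 and -0.02 to 0.16 for Fst.

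The count of all genes past the threshold in hindlimb minus head muscles was 2, and 1 with median centring, with trend and robust settings, with the range term and on the 6 arrays. Leaving out 1 array gave 0 (without masseter) to 19 (without soleus) there and 0 to 4 (without digastric) in shoulder and forelimb minus head muscles, and the cause was not tested. Without soleus the r of Mstn with fast fibre genes was 0.28 (up to 0.96 with another array left out) and with slow fibre genes 0.04 (down to -0.97), and the r of Mss51 with fast fibre genes was -0.31 (up to 0.29).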

Other observations

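The genes next to Mss51 and Mstn in the size of their difference were looked up after values were seen. In masseter, after Mss51 (6.22), the largest positive differences from the median of the other 8 arrays were Klk1 (5.71), the prolyl hydroxylase gene Egln3 (2.85), Phxr4 (2.81), the predicted gene Gm4861 (2.61) and Neto2 (2.54), so that Mss51 and Klk1 stood well apart from the rest. Egln3, which marks hypoxia-inducible factors for degradation, was at 10.32 in masseter, against a median of 7.47.

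In soleus, beside Mstn, whose value there was not above the yardstick, the largest negative differences were Pfkfb3 (-4.16), which drives glycolysis through fructose bisphosphate, Myh4 (-4.01), Pvalb (-3.72), Mybpc2 (-3.71), the spermine oxidase gene Smox (-3.53) and the fast fibre actinin gene Actn3 (-3.12). Pfkfb3 was at 3.54 in soleus, close to the yardstick of 3.30 there, against a median of 7.70 on the other arrays.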
